A study of Homo sapiens with 12 samples.

Results

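The transcripts of 9 genes of haem synthesis were examined, ALAS1, ALAS2, SLC25A38, ALAD, UROS, UROD, CPOX, PPOX and FECH. They were taken by gene symbol from a table of 19447 symbols, and all 9 were found and passed the filter on low counts in every comparison. Messenger RNA had been sequenced in 12 libraries from 4 groups of 3. The K562 group held untreated cells of K562, an established line from chronic myeloid leukemia that carries the BCR-ABL fusion kinase, and the K562+L group held K562 cells given 6 µM lycorine, a plant alkaloid. The K562/IM group held the line derived from K562 by raising the dose of imatinib (IM), the inhibitor of BCR-ABL, in steps, and later grown in 5 µM imatinib. The K562/IM+L group is labelled as that resistant line given 6 µM lycorine. Only 1 resistant line was used. The time in lycorine before sequencing and the imatinib in the medium at that point are not given in the sources used here. The labels give the libraries of the last group the code G2, whereas plots in the study give that condition the code G6, so that these 3 are called the labelled libraries here, and every direction drawn from them rests on the label K562/IM+L.

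Haem is built from glycine and succinyl-CoA in a pathway that starts in the mitochondrion, runs through the cytosol and ends in the mitochondrion, where iron is put into protoporphyrin. ALA synthase makes the first and rate-limiting step and has a housekeeping form, ALAS1, and a form used by red cell precursors, ALAS2. K562 cells have erythroid features, make fetal and embryonic globins and can be driven to make haemoglobin, so that haem synthesis is one of the readouts by which their erythroid state is judged.

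Total counts ran from 75093844 to 107344598 per library, and the 9 genes held between 968 and 91806 counts each. The labels do not say that the 3 libraries of a group came from separate cultures, and the p-values measure the spread between these libraries only. Levels are given in CPM, counts scaled to a common library size after TMM normalization, which corrects for differences in composition. All 14 erythroid markers, among them the fetal globins, had counts in every group. At 1 CPM or more stood 12 of them in K562/IM and 14 in each of the other groups. Those under 1 CPM in K562/IM were HBB and SLC4A1, at means of 0.0624 and 0.122 CPM. Of the markers of other cells, MS4A1 of B cells and PPBP of platelets were listed at 0 in all 12 libraries, and MPO and CD14 of myeloid cells reached at most 0.126 and 0.238 CPM. LYZ, also on the myeloid list, stood at 111 CPM in K562, 120.3 in K562+L, 166 in K562/IM and 78.1 in the labelled libraries (means of 3), and made up nearly all of the sum of that list. The megakaryocyte list summed to 192 to 212 CPM in K562/IM, where GP9 and PF4 were listed at 0, and to 6.18 to 8.11 in K562. Most of the K562/IM sum was ITGA2B, at 186 CPM beside 4.83 in K562, and ITGB3 stood at 11.2 beside 0.429 (means of 3). The T cell list reached 21.8 to 23.4 in K562/IM, nearly all of it CD3D, with CD3E at most 0.125 and CD3G at most 0.467 there. The fibroblast list summed to 19.3 to 24.5 CPM in K562/IM, mostly COL1A2, and to 0.579 to 0.906 in K562. The epithelial list, EPCAM and KRT19, summed to 182 to 219 CPM in K562 and to 186 to 191 in K562/IM. In a bulk sample fewer cells of a kind and less RNA per cell cannot be told apart.

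The regulatory sequence of both ALA synthase genes is shown because these 2 genes carry the same enzymatic step and behaved differently in these libraries, and that of CPOX is shown as the member with the most GATA motifs. Each sequence is the stretch of 250 bases before the gene start in RefSeq (GRCh38.p14), 5′ to 3′ on the gene's strand. The GENCODE starts of ALAS2 and CPOX lie further upstream, inside these stretches. Capitals mark the NF-E2 core, TGAGTCA, and the GATA motif, both searched on either strand. The GATA motif could read AGATAA as its first form, AGATAG as another form, TGATAA as the next form, and TGATAG as the last of these forms. The ALAS1 stretch lies at chr3:52197833-52198082 on the plus strand, the ALAS2 stretch at chrX:55030978-55031227 on the minus strand and the CPOX stretch at chr3:98593612-98593861 on the minus strand.
ALAS1: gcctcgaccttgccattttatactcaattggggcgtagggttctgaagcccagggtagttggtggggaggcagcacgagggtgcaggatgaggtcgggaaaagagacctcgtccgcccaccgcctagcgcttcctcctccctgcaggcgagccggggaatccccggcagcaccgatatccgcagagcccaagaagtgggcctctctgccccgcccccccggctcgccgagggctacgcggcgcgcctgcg
ALAS2: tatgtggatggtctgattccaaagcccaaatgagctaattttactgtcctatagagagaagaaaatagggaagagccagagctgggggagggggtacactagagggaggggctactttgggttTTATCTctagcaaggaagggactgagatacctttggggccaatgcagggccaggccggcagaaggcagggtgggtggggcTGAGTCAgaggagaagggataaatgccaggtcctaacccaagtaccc
CPOX: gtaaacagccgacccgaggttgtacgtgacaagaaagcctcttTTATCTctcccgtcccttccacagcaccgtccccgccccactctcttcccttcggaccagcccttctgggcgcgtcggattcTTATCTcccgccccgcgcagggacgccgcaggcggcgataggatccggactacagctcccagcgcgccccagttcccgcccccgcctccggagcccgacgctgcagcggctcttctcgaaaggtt

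The ALAS2 stretch held 1 GATA motif, 127 bases before the start, and 1 NF-E2 core, 47 bases before it. The ALAS1 stretch held neither, and the CPOX stretch held 2 GATA motifs, at 207 and 125 bases. Promoters of 8 members were matched in RefSeq, in 10 stretches, since ALAD and PPOX had 2 starts each. A GATA motif stood in stretches of ALAS2, ALAD, CPOX and PPOX, 4 of 10, where 22.3% of 35116 promoters of the same length held one. The NF-E2 core stood in 1 of 10, against 4.2% of promoters. The CACCC box (CCNCNCCC, either strand), the kind of site that KLF1 binds, stood in 7 of 10, against 53.4%, and the motif of NRF1 in 0 of 10, against 1.03%. The 2 stretches of ALAD overlap each other, as do those of PPOX, so that 1 site can count in both. By gene, the GATA motif stood in 4 of 8 and the CACCC box in 6 of 8. A match in these letters is a description and does not show that a factor binds there.

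ALAS1 (chr3:52198086-52214327 in GENCODE release 29, GRCh38, plus strand) encodes the housekeeping ALA synthase of all tissues. ALAS1 stood at 38.9, 36.9 and 39.4 CPM in K562, at 43.8, 40.0 and 40.2 in K562+L, at 36.4, 34.6 and 37.9 in K562/IM and at 32.7, 37.7 and 32.7 in the labelled libraries. The 12 libraries thus lay close together, and the 4 groups followed each other with overlap, except that the K562+L libraries lay above the other groups. No neighbours in the order of group means differed beyond their spread (edgeR's quasi-likelihood test, adjusted p = 0.615, 0.364 and 0.361, from the lowest step to the highest). Between K562/IM and the labelled libraries the log2 fold change, labelled over K562/IM, was -0.05, with a 95% interval of -0.25 to 0.15. The extremes of the order, the labelled libraries and K562+L, differed by -0.30 (standard error 0.093, edgeR adjusted p = 0.0220). That call was lost with upper-quartile normalization (-0.09, adjusted p = 0.442), without replicate 1 of the labelled libraries (adjusted p = 0.0867) and without replicate 1 of K562+L (adjusted p = 0.0743). K562/IM against K562+L did not pass (-0.18, adjusted p = 0.0532), but did without replicate 2 (adjusted p = 0.0494) or 3 (0.0358) of K562+L, with DESeq2 (0.0434) and with RLE normalization (0.0461).

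ALAS2 (chrX:55009055-55031064, minus strand) encodes the erythroid ALA synthase. It stood at 37.6, 45.2 and 47.9 CPM in K562 and at 48.7, 50.9 and 47.0 in K562+L. It was lower in K562/IM, at 16.8, 17.2 and 18.5, and far higher in the labelled libraries, at 1155, 1169.6 and 962. The K562/IM libraries lay below all others and the labelled libraries above all others, whereas K562 and K562+L overlapped (log2 fold change 0.16, standard error 0.11, edgeR adjusted p = 0.262). The log2 fold change of the labelled libraries was 5.99 against K562/IM (standard error 0.11, edgeR adjusted p = 1.1e-07) and 4.63 against K562 (standard error 0.15, edgeR adjusted p = 6.3e-06), or 63.6-fold and 24.8-fold. K562/IM fell by 1.31 on the log2 scale against K562 (standard error 0.11, edgeR adjusted p = 4.4e-05). Among all genes tested, ALAS2 ranked at 157 of 13727 from the top by log2 fold change in the labelled libraries against K562/IM, and at 500 of 13406 from the bottom in K562/IM against K562.

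**Figure D1:**
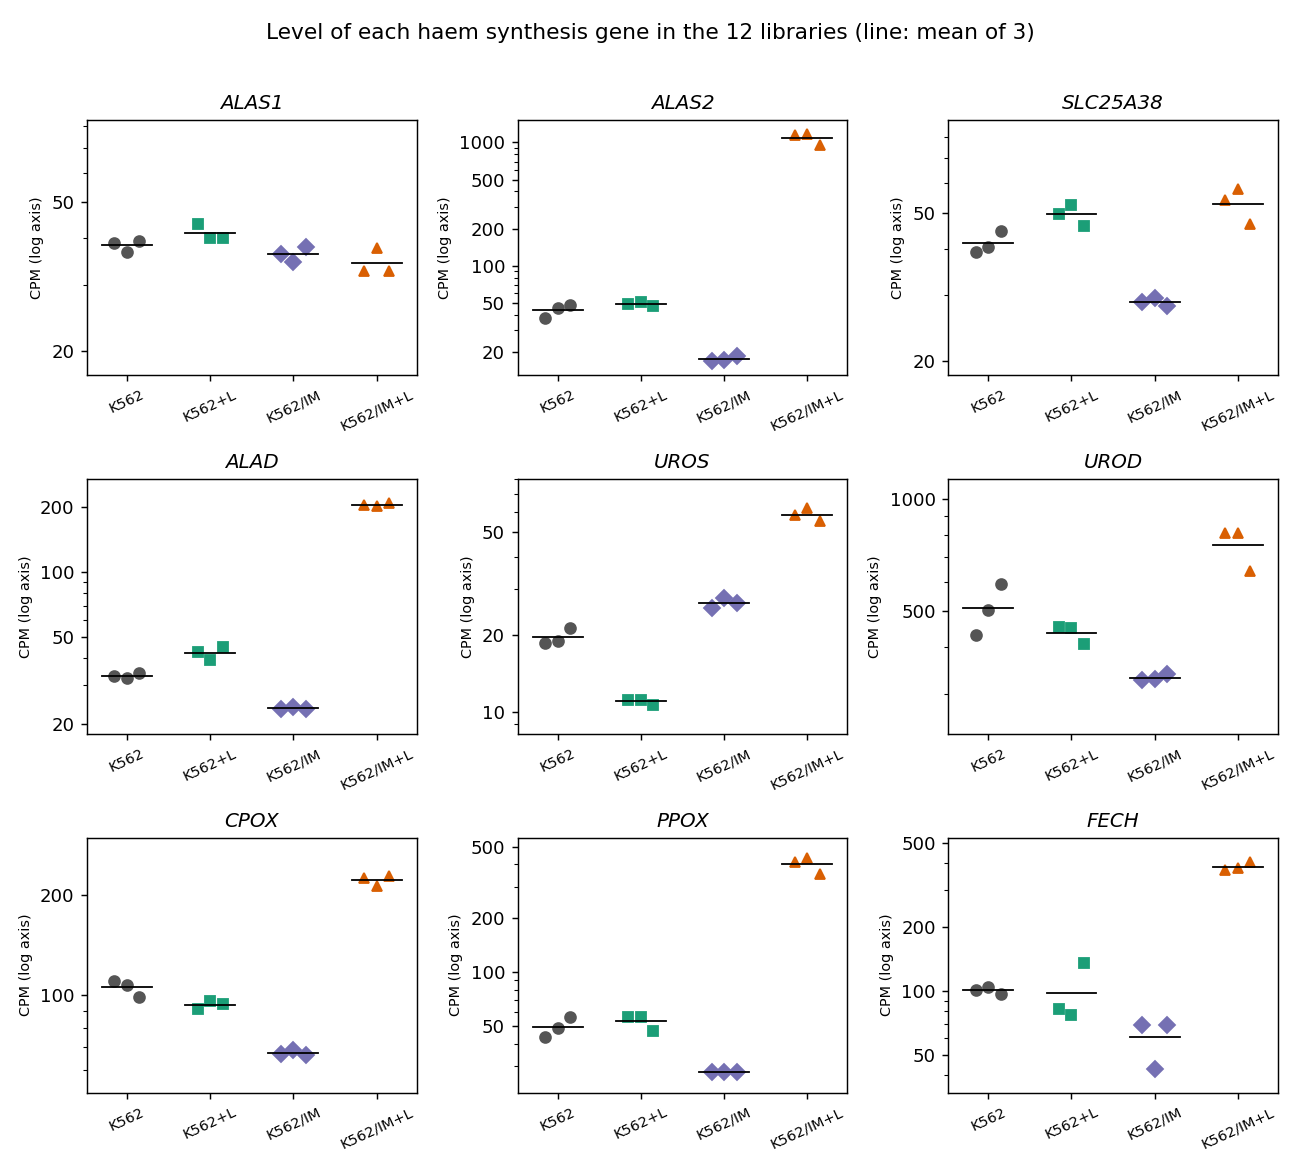
Level of each of the 9 genes, in CPM on a log axis, in the 12 libraries by group, with K562/IM+L as labelled. Points are libraries and lines are means of 3, and in 7 of the 9 panels all 3 labelled libraries lie above the libraries of the other groups, ALAS2 by most, with ALAS1 and SLC25A38 as the exceptions. How many of all genes stand apart in this way was not counted. Of all genes tested, 28.2% passed as higher in the labelled libraries against K562, 33.2% against K562/IM and 34.1% against K562+L.

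The transcript of ALAS2 carries an iron-responsive element near its 5′ end, through which iron-regulatory proteins hold back its translation when iron is short. The element is shown because it stands between this RNA and the enzyme, which was not measured here. It lies in the 5′ UTR at chrX:55030944-55030966 (RefSeq, GRCh38.p14, minus strand), from base 12 to base 34 of the transcript, with the loop in capitals.
ALAS2 element: gttcgtcctCAGTGCagggcaac

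To compare both synthases, levels were set per length, as CPM per kb of the principal transcript of GENCODE. The ratio of ALAS2 to ALAS1 was 1.36 ± 0.176 (SD, n = 3) in K562 and 1.42 ± 0.0958 (SD, n = 3) in K562+L. It was 0.579 ± 0.0232 (SD, n = 3) in K562/IM and 38.3 ± 3.68 (SD, n = 3) for the labelled libraries. ALAS1 was thus the more abundant form in all 3 K562/IM libraries, and ALAS2 in all libraries of the other groups.

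**Figure D2:**
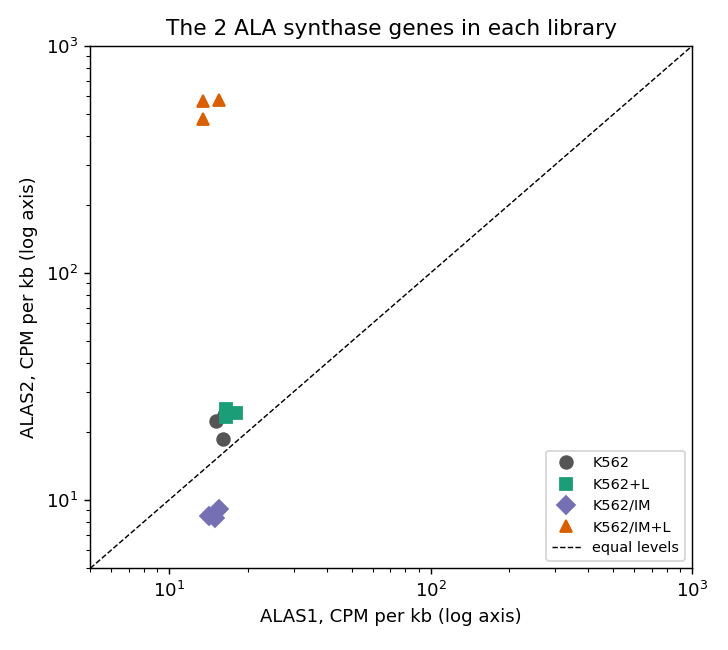
ALAS2 against ALAS1 in CPM per kb of transcript, both on log axes, with 1 point per library and a dashed line at equal levels. The K562/IM libraries lie below the line, K562 and K562+L lie just above it, and the labelled libraries stand at 474 to 577 CPM per kb of ALAS2 with ALAS1 at 13.5 to 15.5.

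SLC25A38 (chr3:39383324-39397351, plus strand) encodes the carrier that brings glycine into the mitochondrion for ALA synthase. It ranged from 39.1 to 44.6 CPM in K562, from 46.1 to 52.6 in K562+L, from 28.04 to 29.5 in K562/IM and from 46.6 to 58.0 in the labelled libraries. K562/IM lay below all other groups, and the labelled libraries overlapped K562+L (log2 fold change 0.06, 95% interval -0.17 to 0.30, edgeR adjusted p = 0.606). Against K562/IM the labelled libraries rose by 0.91 (standard error 0.091, edgeR adjusted p = 9.6e-05), the smallest rise among the 8 members called there. Against K562 they rose by 0.34 (standard error 0.11, edgeR adjusted p = 0.0392). This call was lost without replicate 1 (adjusted p = 0.120) or 2 (0.140) of the labelled libraries and without replicate 1 (0.101) or 2 (0.126) of K562. In K562+L against K562 the libraries did not overlap, but SLC25A38 did not pass (log2 fold change 0.26, edgeR adjusted p = 0.0638), although it did without replicate 3 of K562 (0.31, adjusted p = 0.0482) and with DESeq2 (adjusted p = 0.0462).

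ALAD (chr9:113386317-113401333, minus strand) encodes the cytosolic enzyme that condenses ALA into porphobilinogen. It stood at 33.3, 32.4 and 34.1 CPM in K562, at 42.7, 39.2 and 45.2 in K562+L, at 23.3, 23.8 and 23.4 in K562/IM and at 206, 203 and 208 in the labelled libraries. No groups overlapped, and each step of the order K562/IM, K562, K562+L and the labelled libraries passed the test. The rise of the labelled libraries over K562/IM was 3.16 (standard error 0.065, edgeR adjusted p = 1.3e-07), or 8.92-fold. ALAD was the member that rose in K562+L against K562, by 0.35 (standard error 0.089, edgeR adjusted p = 0.0184). That call was lost without replicate 1 (adjusted p = 0.0610) or 3 (0.0767) of K562+L and without replicate 2 of K562 (0.0860).

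UROS (chr10:125784980-125823285, minus strand) encodes the enzyme that closes the tetrapyrrole ring, and its order of groups was its own. It stood at 18.6, 18.9 and 21.2 CPM in K562, at 11.2, 11.2 and 10.7 in K562+L, at 25.5, 27.7 and 26.6 in K562/IM and at 58.0, 61.9 and 55.3 in the labelled libraries. K562+L was lowest, K562/IM lay above K562, no groups overlapped, and each step of the order passed. UROS fell by 0.83 in K562+L against K562 (standard error 0.097, edgeR adjusted p = 9.5e-04), the sole member lower there. It rose by 0.44 in K562/IM against K562 (standard error 0.087, edgeR adjusted p = 0.00338), the sole member higher there. The labelled libraries rose over K562/IM by 1.16 (standard error 0.074, edgeR adjusted p = 1.0e-05).

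UROD (chr1:45012147-45015575, plus strand) encodes the cytosolic decarboxylase that makes coproporphyrinogen. It ranged from 432 to 591 CPM in K562, from 408 to 453 in K562+L, from 328 to 339 in K562/IM and from 640 to 812 in the labelled libraries. K562 and K562+L overlapped, K562/IM lay below them and the labelled libraries above. The labelled libraries rose over K562/IM by 1.21 (standard error 0.10, edgeR adjusted p = 3.5e-05) and over K562 by 0.55 (standard error 0.15, edgeR adjusted p = 0.0175). The call against K562 was lost without replicate 1 (adjusted p = 0.0709) or 2 (0.0680) of the labelled libraries and without replicate 2 of K562 (0.0615). Without replicate 1 of K562, the lowest of that group, UROD passed as lower in K562+L against K562 (-0.34, adjusted p = 0.0233), where it did not with all libraries (-0.22, adjusted p = 0.174).

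CPOX (chr3:98579446-98593723, minus strand) encodes the mitochondrial oxidase that takes coproporphyrinogen to protoporphyrinogen. It ranged from 99.0 to 111 CPM in K562, from 91.2 to 96.0 in K562+L, from 66.6 to 68.6 in K562/IM and from 213 to 228 in the labelled libraries, with no overlap of groups. K562+L against K562 did not pass (-0.17, standard error 0.083, edgeR adjusted p = 0.132). K562/IM fell by 0.65 against K562 (standard error 0.072, edgeR adjusted p = 2.0e-04), and the labelled libraries rose over K562/IM by 1.74 (standard error 0.066, edgeR adjusted p = 9.6e-07).

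PPOX (chr1:161166410-161178013, plus strand) encodes the enzyme that oxidises protoporphyrinogen to protoporphyrin. It stood at 43.4, 49.1 and 56.3 CPM in K562, at 56.5, 56.5 and 47.2 in K562+L, at 27.8, 27.7 and 27.7 in K562/IM and at 412, 433 and 355 in the labelled libraries. K562 and K562+L overlapped, the K562/IM libraries lay below them almost without spread, and the labelled libraries lay far above. After ALAS2, PPOX had the largest rise over K562/IM, 3.88 (standard error 0.094, edgeR adjusted p = 2.2e-07), or 14.7-fold, and fell by 0.84 in K562/IM against K562 (standard error 0.10, edgeR adjusted p = 3.4e-04). Exons of PPOX overlap those of B4GALT3 on the other strand over 24.3% of their length, and whether the counting used strand is not given. B4GALT3 itself went the other way in the labelled libraries, from 58.6 ± 0.766 (SD, n = 3) CPM in K562/IM to 48.7 ± 3.70 (SD, n = 3), a log2 fold change of -0.24 (edgeR adjusted p = 0.0218). In K562/IM against K562 the log2 fold change of B4GALT3 was -0.33 (edgeR adjusted p = 0.00973), the same direction as PPOX. In K562+L against K562 it was 0.02 (edgeR adjusted p = 0.885). What part the overlap has in the counts of PPOX was not tested. Of the other members, CPOX shares 5.04% of its exon length and ALAS2 0.141% with a neighbouring gene.

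FECH (chr18:57548283-57586772, minus strand) encodes ferrochelatase, which puts iron into protoporphyrin to make haem. It stood at 101, 104 and 96.7 CPM in K562, at 81.7, 77.1 and 135 in K562+L, at 69.2, 43.0 and 69.0 in K562/IM and at 373, 380 and 407 in the labelled libraries. The labelled libraries lay above all others and K562/IM below all others. Replicate 3 of K562+L and replicate 2 of K562/IM stood apart from their own groups, in which the highest library was 1.75 and 1.61 times the lowest. The labelled libraries rose over K562/IM by 2.70 (standard error 0.19, edgeR adjusted p = 1.6e-05), or 6.52-fold, and K562/IM fell by 0.74 against K562 (standard error 0.17, edgeR adjusted p = 0.00764). In K562+L against K562 the change was -0.04 (standard error 0.20, edgeR adjusted p = 0.890), and without replicate 3 of K562+L it was -0.34 (adjusted p = 0.0499). The difference between K562/IM and K562+L (-0.69, edgeR adjusted p = 0.0322) was lost without replicate 2 of K562/IM (-0.50, adjusted p = 0.0917) and without replicate 3 of K562+L (-0.39, adjusted p = 0.119), as well as with DESeq2 (adjusted p = 0.0626) and upper-quartile normalization (adjusted p = 0.0549).

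Counted together, 8 of the 9 members passed as higher in the labelled libraries over K562/IM at an edgeR adjusted p under 0.05, where 33.2% of all genes tested were higher. With a log2 fold change over 1 as well, 7 were higher, where 14.7% of genes were. The median of the members was 1.74, beside -0.0069 over all genes tested. This rise was not alone in its libraries. All 14 erythroid markers were higher as well, and their sum ran from 41657 to 58235 CPM in the labelled libraries and from 3250.0 to 3440 in K562/IM. The share of all counts taken by the globin genes was 3.80% to 5.19% against 0.287% to 0.304%. With the globin genes left out of the fit, an alternative chosen after the data were seen, 8 members were again called. Other lists moved as well. In the labelled libraries the megakaryocyte list summed to 23.8 to 26.6 CPM, the T cell list to 0.491 to 0.809, the fibroblast list to 0.969 to 1.34 and the myeloid list to 74.97 to 80.04, each below its range in K562/IM, where the myeloid list summed to 162 to 171. The B cell list summed to 0.167 to 0.563 CPM against 1.97 to 2.60, and the epithelial list was higher, at 213 to 277. The K562 sums were 1.79 to 2.90 CPM (T cell), 0.579 to 0.906 (fibroblast) and 0.441 to 1.22 (B cell). For the megakaryocyte, myeloid and epithelial lists they were 6.18 to 8.11, 109 to 115 and 182 to 219. COL1A2 averaged 0.0164 CPM in K562, 17.2 in K562/IM and 0.0294 in the labelled libraries. In the same order CD3D averaged 2.15, 22.0 and 0.343, ITGA2B 4.83, 186 and 18.0, and KRT19 74.7, 142 and 155. What part these transcripts and the erythroid ones have in the result was not tested.

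In K562/IM against K562, 7 of the 9 members were lower, where 27.1% of all genes tested were, and 1 was higher, where 30.1% were. Only ALAS2 was lower by more than 1 on the log2 scale (5.29% of genes). The median of the members was -0.62 beside 0.04 over all genes tested. The erythroid markers moved alongside, with 13 of 14 lower and 1 higher, and the megakaryocyte, T cell, B cell, fibroblast and myeloid sums were higher in K562/IM, and their part in the result was not tested. This comparison shares the K562/IM libraries with the previous one, so that a low level in K562/IM enters both. Against K562 instead, the labelled libraries were higher in 8 of the 9 members, where 28.2% of genes were, and in 6 by more than 1 (14.9% of genes), with ALAS1 as the one that did not pass.

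In K562+L against K562, 1 member was higher and 1 lower, where 18.2% and 19% of all genes tested were, and 0 members passed with a log2 fold change over 1 in size, where 2.38% of genes were higher and 4.01% lower by that much. The members that did not pass had 95% intervals that lay between -0.50 and 0.47 on the log2 scale. The erythroid markers did not share this, since 11 of 14 were lower and 0 higher, with a median log2 fold change of -0.73 beside 0.10 for the members.

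**Figure D3:**
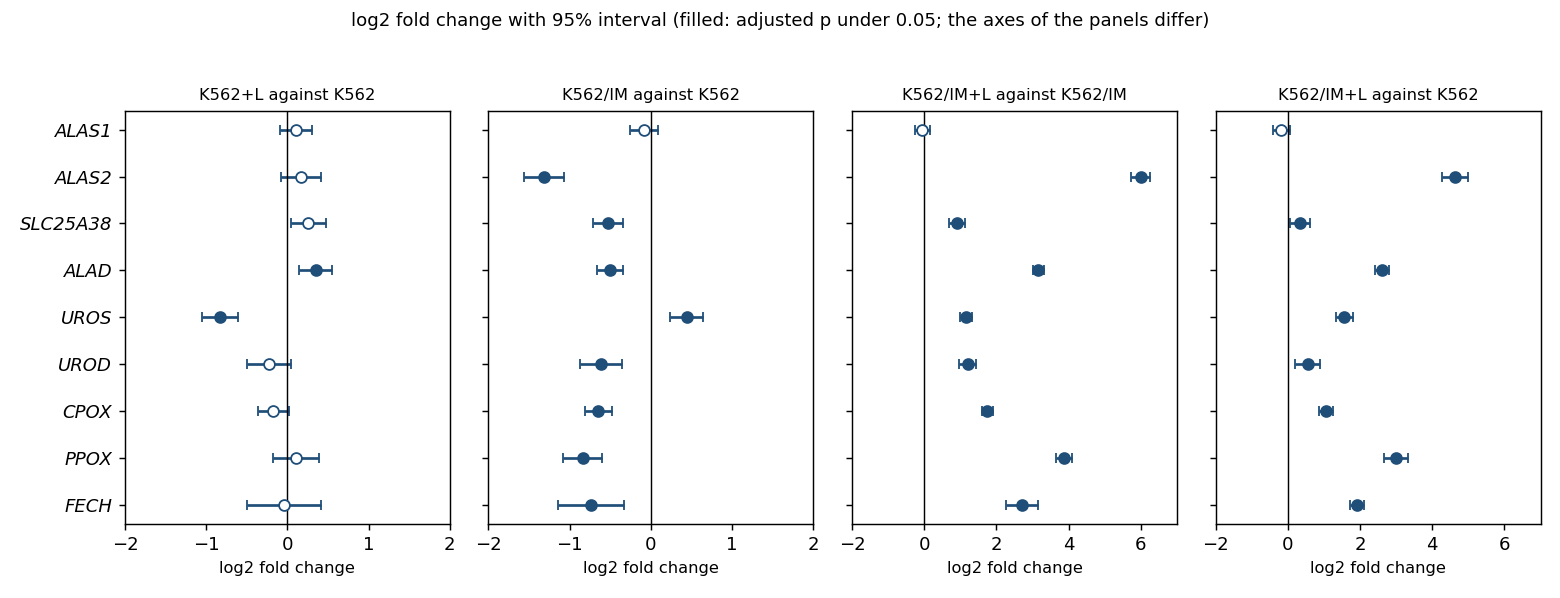
The log2 fold change of each member in 4 comparisons, in the order of the pathway, with bars for the 95% interval and filled points for an adjusted p under 0.05. The left pair of panels has a narrower axis than the right pair, and ALAS1 is open in all 4 panels, whereas ALAS2 moves from -1.31 in K562/IM against K562 to 5.99 in the labelled libraries against K562/IM.

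The lycorine groups of both lines also differed. The labelled libraries were higher than K562+L in 7 members, where 34.1% of genes tested were, and lower in 1, where 33.1% were, ALAS1 as given above. K562/IM was lower than K562+L in 7 members (32.2% of genes) and higher in 1 (34.7%), UROS. The lycorine effects of both lines were compared by an interaction term over the 12 libraries. It passed for 8 members, all with a more positive effect in K562/IM as labelled, where 29.9% of all genes tested passed in that direction. The term takes the labelled libraries as cells of the resistant line, which rests on their label and was not tested. ALAS1 did not pass (-0.18, standard error 0.11, edgeR adjusted p = 0.188), except without replicate 2 of the labelled libraries (-0.29, adjusted p = 0.0406).

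Along the pathway the balance of the transcripts shifted, in CPM per kb of transcript. UROD was the most abundant member in every group, with 69.3% of the summed level in K562, 65.8% in K562+L and 68.2% in K562/IM. In the labelled libraries UROD held 34.6% and ALAS2 32.3%. There PPOX came next with 13.7%, from 4.26% in K562/IM, and ALAS1 was last with 0.844%. With the length of all exons of a gene in place of the principal transcript, ALAS2 ranked 1 and UROD 2 in the labelled libraries, and PPOX ranked 7 in place of 3 in K562, so that the order depends on the length used. The summed level of the 9 genes was 565 CPM per kb in K562, 511 in K562+L, 375 in K562/IM and 1676 in the labelled libraries.

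**Figure D4:**
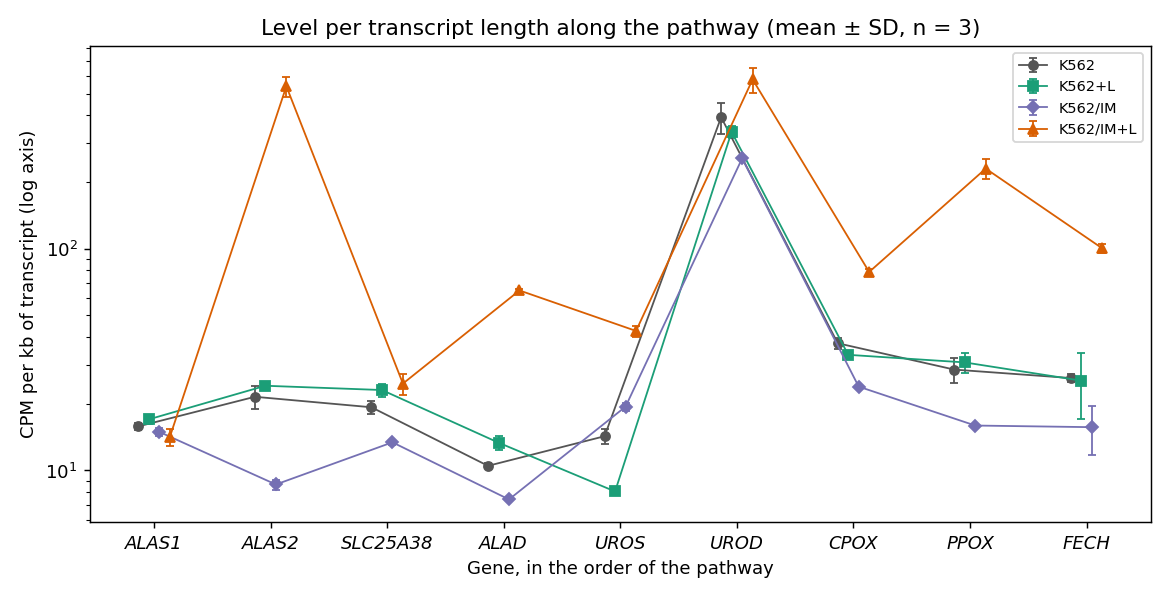
Mean level of each member in CPM per kb of transcript on a log axis, in the order of the pathway, with 1 line per group and bars for the SD of 3 libraries. UROD is the peak of every group, the K562/IM line runs lowest at 7 of the 9 genes, all but ALAS1 and UROS, and the line of the labelled libraries has further peaks at ALAS2 and PPOX. How many of all genes were lowest in K562/IM was not counted. Of all genes tested, 27.1% passed as lower in K562/IM against K562 and 32.2% against K562+L.

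The genes whose pattern was most like that of ALAS2 were named by Pearson's correlation of log2 CPM over the 12 libraries, among 13994 genes. They were PPOX (r = 0.999), BPGM (0.998), ASIC4 (0.997), SPECC1 (0.995) and ALAD (0.995). BPGM, which makes the 2,3-bisphosphoglycerate of red cells, stood at 40.3 ± 1.18 (SD, n = 3) CPM in K562, 25.9 ± 0.714 (SD, n = 3) in K562/IM and 154 ± 10.1 (SD, n = 3) in the labelled libraries. For ALAS1 the nearest were CDC42EP2 (0.928), DCTD (0.924), CALHM2 (0.914) and ZNF276 (0.908). These correlations are across libraries that fall into 4 groups, with 1 group far from the rest for ALAS2, and are given as a description.

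Other genes of haem metabolism were followed in 3 lists. The first held 24 genes of mitochondrial transport and assembly, such as carriers of iron and porphyrins and makers of iron-sulfur clusters. In the labelled libraries against K562/IM, 14 were higher and 3 lower (33.2% and 33.6% of all genes tested), and 8 were higher by more than 1 (14.7% of genes), with a median of 0.54. The largest changes were those of SLC25A37, SLC6A9 and ABCB6. SLC25A37, mitoferrin, which brings iron into the mitochondrion of red cell precursors, went from 50.2 ± 0.796 (SD, n = 3) to 1333 ± 38.2 (SD, n = 3) CPM (log2 fold change 4.76, standard error 0.070, edgeR adjusted p = 7.2e-08). SLC6A9, a glycine transporter of the cell surface, rose by 2.88 (standard error 0.090, edgeR adjusted p = 4.7e-07), and ABCB6, a porphyrin transporter, by 2.49 (standard error 0.081, edgeR adjusted p = 5.3e-07). HSPA9 was the member lower by more than 1 (-1.19) and is named after its value was seen. In K562/IM against K562, 15 of the list were lower and 3 higher (27.1% and 30.1% of genes). Of 23 tested in K562+L against K562, 8 were lower and 2 higher (19% and 18.2% of genes), with a median of -0.21, and FDXR (-1.04, edgeR adjusted p = 0.00285) and TSPO (-0.87, edgeR adjusted p = 0.00921) fell most. SLC25A37 rose there by 0.31 (edgeR adjusted p = 0.0218).

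The second list held 12 genes of haem breakdown, export and carriage, of which 11 were tested, as HMOX1, the inducible haem oxygenase, was at 0 in 3 of the groups and near it in K562+L. In the labelled libraries against K562/IM 3 were higher and 3 lower, near the shares of all genes (33.2% and 33.6%), with a median of 0.15. ABCG2, an exporter that also carries porphyrins, went from 1.85 ± 0.413 (SD, n = 3) to 21.5 ± 1.23 (SD, n = 3) CPM (log2 fold change 3.56, standard error 0.17, edgeR adjusted p = 2.9e-06), beside 21.8 ± 0.426 (SD, n = 3) in K562. BLVRB, a biliverdin reductase, rose by 2.89 (standard error 0.14, edgeR adjusted p = 3.1e-06), and the haem carrier FLVCR2 did not pass (-0.93, edgeR adjusted p = 0.0522), at 1.29 ± 0.375 (SD, n = 3) CPM in K562/IM. Between K562+L and K562 2 were higher in K562+L and 3 lower (18.2% and 19% of genes), SLC46A1, a folate and haem carrier, by 0.96 (edgeR adjusted p = 8.4e-04) and SLC48A1, which moves haem out of lysosomes, by -0.84 (edgeR adjusted p = 0.00119).

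The third list held 16 regulators, of which 14 were tested. In the labelled libraries against K562/IM 9 were higher and 2 lower (33.2% and 33.6% of genes), with a median of 0.46. LMO2, a bridging protein of the GATA1 and TAL1 complex, rose by 3.89 (standard error 0.11, edgeR adjusted p = 3.4e-07), from 28.8 ± 2.27 (SD, n = 3) to 418 ± 44.9 (SD, n = 3) CPM. TAL1 rose by 2.14 (standard error 0.41, edgeR adjusted p = 0.00239), with labelled libraries that ran from 109 to 368 CPM, and KLF1, an erythroid activator, by 2.01 (standard error 0.11, edgeR adjusted p = 5.4e-06). GATA1, named after its value was seen because of the motif described above, rose by 0.38 (standard error 0.098, edgeR adjusted p = 0.0110). In K562/IM against K562, 1 was higher and 4 lower (30.1% and 27.1% of genes), LMO2 by the most (-2.49). Between K562+L and K562 0 were higher and 2 lower in K562+L (18.2% and 19% of genes), LMO2 (-0.91, edgeR adjusted p = 6.8e-04) and NFE2 (-0.91, edgeR adjusted p = 0.00301).

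**Figure D5:**
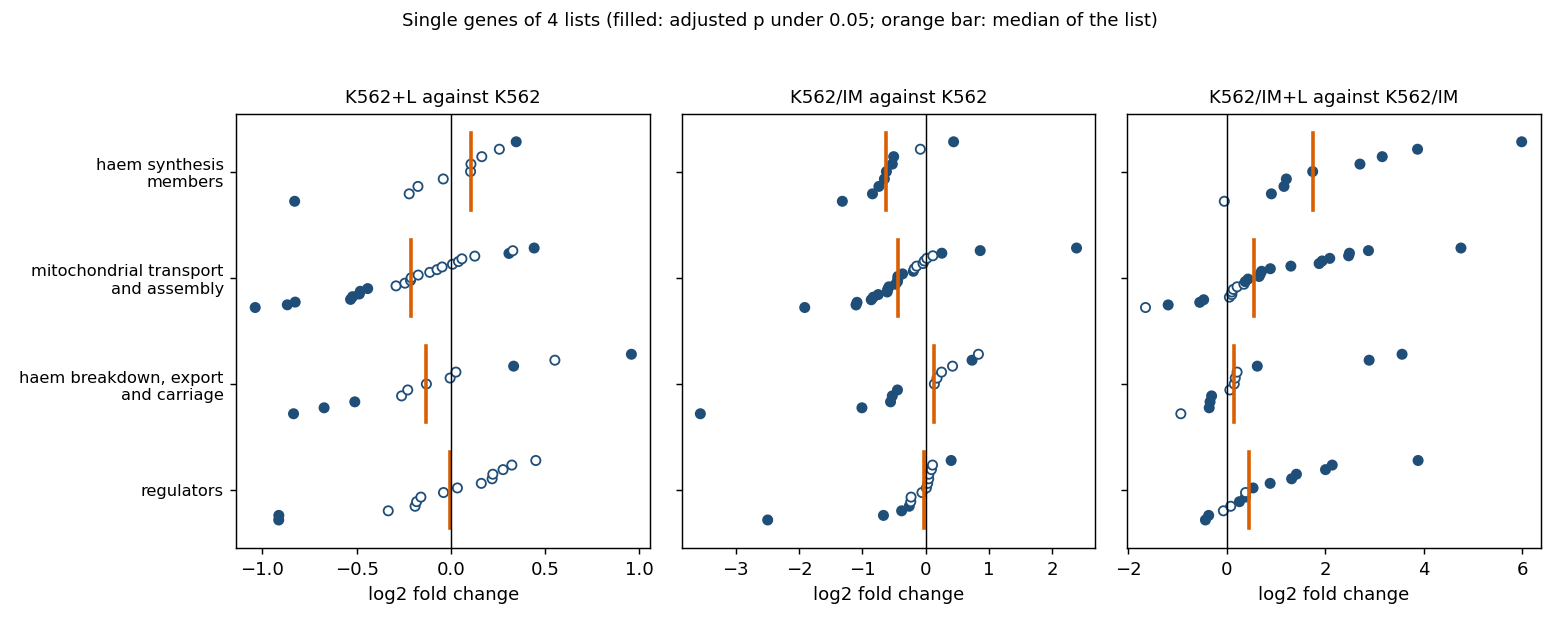
The log2 fold change of each gene of the 9 members and of the 3 lists in 3 comparisons, with 1 point per gene, filled for an adjusted p under 0.05, and an orange bar at the median of the list. The axes differ between panels, and the medians of the members are 0.10, -0.62 and 1.74 from left to right.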

How the data were processed

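Poly(A) RNA of 12 libraries was sequenced. The deposited table, made by the authors, holds unnormalized counts by gene symbol. STAR, StringTie and hg38 stand in the submitters' processing notes, and versions and annotation are not given in the sources used here. Low counts piled up: 67.9% of 23289 values up to 25 left 0 or 1 on division by 4 (52% of whole numbers do), so counts divided by 4 were an alternative. Libraries were grouped by the labelled treatment. Each of 6 pairwise comparisons used its 6 libraries, filterByExpr (minimum count 10), TMM and the quasi-likelihood test of edgeR 4.0.16 in R 4.3.3, with Benjamini-Hochberg adjustment over all genes and a threshold of 0.05. The interaction used 12 libraries. Standard errors are the log2 fold change over the root of F. Other alternatives were DESeq2 1.42.0, other normalizations and filters, a replicate block and each library left out. On simulated counts with changes of 1.5 (log2), the test of the labelled libraries against K562/IM recovered 200 of 200 genes with 12 false calls among 13533, and the interaction 195 of 200 with 9 among 13714. Each simulation changed only 200 genes, up or down, and gave all genes the same dispersion, the spread beyond counting. In the data 9169 of 13727 genes were called in the first of these tests, so the false-call counts do not carry over. Named genes are the members, from each list the 3 largest changes in the labelled libraries against K562/IM and the 2 largest in K562+L against K562, and the 5 genes most like each ALA synthase. Members and lists were chosen with earlier results of these data known. Some single genes that these rules name are not reported here.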

Additional observations from a re-analysis of the deposited data

Results flagged for a closer look

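For 8 of the 9 members lycorine had another effect in K562/IM than in K562, as labelled (edgeR interaction, 12 libraries). In that test 8628 of the 13995 genes tested passed in either direction. All 8 members had the more positive effect in K562/IM, a direction in which 29.9% of all genes tested passed. The difference, K562/IM minus K562 on the log2 scale, was 5.81 for ALAS2 (adjusted p = 1.7e-10), 3.75 for PPOX (6.7e-09), 2.79 for ALAD (9.7e-10), 2.72 for FECH (1.2e-05), 1.97 for UROS (5.7e-08), 1.90 for CPOX (1.3e-08), 1.41 for UROD (1.9e-05) and 0.63 for SLC25A38 (0.00131). All 8 rest on the labelled libraries, whose code differs between the labels and the study's plots. UROS is the sole member whose effects had opposite signs with each past the threshold, -0.83 in K562 and 1.16 in K562/IM. Among these 8, the effects of UROD, CPOX and FECH also differed in sign. Theirs in K562 did not pass (-0.22, -0.17 and -0.04), and theirs in K562/IM were 1.21, 1.74 and 2.70.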

How the results depend on the processing

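The number of members called was 8 under every alternative in the labelled libraries against K562/IM and in K562/IM against K562. It ran from 6 to 8 in the labelled libraries against K562, where UROD and SLC25A38 were lost with the replicate block, from 7 to 8 against K562+L, from 7 to 9 in K562/IM against K562+L and from 8 to 9 in the interaction. In K562+L against K562 it was 2, and became 4 with all 12 libraries in 1 fit, where CPOX and SLC25A38 passed, 1 with the replicate block, where ALAD did not pass (adjusted p = 0.0671), and 1 to 3 with 1 library left out. Over all genes tested, the main fits called 9169 of 13727 in the labelled libraries against K562/IM and 7661 of 13406 in K562/IM against K562. The labelled libraries had 7446 of 13307 called against K562 and 8982 of 13357 against K562+L. K562/IM against K562+L had 8981 of 13426, and the interaction had 8628 of 13995. In K562+L against K562 4821 of 12927 were called, 5541 of 13995 in the 12-library fit and 3126 of 12927 with the replicate block. Small changes turned sign for FECH in K562+L against K562 without K562+L replicate 1 (0.07) or 2 (0.10), over a range of -0.34 to 0.10 with 1 library left out, for ALAS1 in the labelled libraries against K562/IM with upper-quartile normalization (0.0070), and for SLC25A38 against K562+L without labelled replicate 2 (-0.0083), over a range of -0.0083 to 0.16 with 1 library left out. Of the values of single members under an alternative, 955 kept direction and call, 20 lost the call, 11 gained it and 4 turned sign. Only 2 of 18 pairs of libraries with the same replicate number had deviations correlated over 0.1 (-0.23 to 0.15), and 4 of 12 libraries correlated best with their own number, so the numbers were not taken as pairs. Upper-quartile normalization moved the median of all genes in the interaction from -0.02 to 0.11.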

Other observations

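The members did not vary alike over the 12 libraries. Log2 CPM of ALAS2 followed that of PPOX (r = 0.999), ALAD (0.995), CPOX (0.979), FECH (0.966) and UROD (0.919) closely, that of SLC25A38 (0.731) and UROS (0.712) less so, and that of ALAS1 inversely (-0.46). UROS and SLC25A38 had r = 0.08 with each other. These values describe 12 libraries in 4 groups and share their depth and normalization.

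The spread seen within groups also varied between members. These values come from 3 libraries each, so that a very low one can arise by chance, and differences in spread were not tested. The coefficient of variation over 3 libraries was 0.310% for PPOX and 1.19% for ALAD in K562/IM, and 32.8% for FECH in K562+L and 24.96% in K562/IM. In K562 it was 15.6% for UROD, 13.1% for PPOX and 12.2% for ALAS2, where replicate 1 was lowest for all 3 genes.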
